A study of Rattus norvegicus with 32 samples.

Results

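The endosomal sorting complexes required for transport (ESCRT) are protein assemblies that bud vesicles away from the cytoplasm, and their genes are described here in liver sinusoidal endothelial cells (LSECs), the fenestrated endothelium that lines the capillaries of the liver. The set was given as 32 gene symbols, among them ALIX (Pdcd6ip) and syntenin (Sdcbp), and a gene was taken where its symbol in the count tables was equal to a member's. This found 29 of the 32, out of 32623 genes listed. Vps37c, Chmp1b and Chmp4b matched no symbol and were not analysed here.

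RNA of rat LSECs, taken from digested livers on an iodixanol density gradient with no sort on a marker named in the labels, was sequenced in 32 libraries. Libraries carry the replicate numbers of their titles, and values of a group of 5 are listed in the order of those numbers. In the carbon tetrachloride (CCl4) experiment, Wistar Han rats inhaled CCl4, a hepatotoxin, for 2 weeks (acute, n = 5), 6 weeks (fibrosis, n = 5) or 12 to 14 weeks (cirrhosis, n = 6), and healthy LSECs came from untreated rats (n = 6). The paper's methods add phenobarbital to the drinking water of the CCl4 rats, so this agent goes with the toxin in all 3 treated groups. They also place the isolation of LSECs some days after the last toxicant dose, in the CCl4 and TAA models alike. The CCl4 rats began exposure within the same weight range, so age at isolation goes with its length. In the thioacetamide (TAA) experiment, 1 group is labelled control (T_control, n = 5) and the other TAA control (T_TAA_control, n = 5). The labels do not settle which of them received TAA, and they give the strain as Wistar Han where the study's text says Sprague-Dawley, so that no direction of disease was drawn from that experiment.

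ESCRT-0, ESCRT-I and ESCRT-II recognise ubiquitinated cargo on endosomes and pass it on, ESCRT-III polymerises into filaments that narrow the membrane neck, and the ATPase VPS4 takes the filaments apart so that the vesicle is cut off and the subunits are used again. Vesicles formed in this way fill multivesicular bodies, which either fuse with lysosomes or release their content as exosomes. ALIX and syntenin lead cargo such as syndecans to ESCRT-III by another entry. LSECs are known for very active endocytosis, which feeds this endosomal route.

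Upstream sequences are shown for 4 members of neighbouring complexes that moved in opposite directions, because genes of a single machinery that part in this way can then be compared at their starts. Stam and Vps36 were called higher at all 3 CCl4 stages, and Vps37b and Vps25 were called lower at all 3. The sequences are the 250 bases before the gene start in RefSeq on GRCr8, a later assembly than that of the read mapping, and capitals mark matches to the motifs searched.
Stam, chr17:82028529-82028778, plus strand: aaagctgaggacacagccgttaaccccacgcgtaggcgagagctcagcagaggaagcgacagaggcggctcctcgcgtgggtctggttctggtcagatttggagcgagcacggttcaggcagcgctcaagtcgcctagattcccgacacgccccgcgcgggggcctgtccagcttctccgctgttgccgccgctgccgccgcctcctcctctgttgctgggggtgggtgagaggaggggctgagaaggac
Vps36, chr16:76537236-76537485, minus strand: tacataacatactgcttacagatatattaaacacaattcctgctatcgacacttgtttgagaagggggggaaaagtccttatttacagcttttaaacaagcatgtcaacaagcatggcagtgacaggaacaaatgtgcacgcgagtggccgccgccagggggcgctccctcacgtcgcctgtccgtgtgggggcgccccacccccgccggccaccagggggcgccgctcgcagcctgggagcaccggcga
Vps37b, chr12:38220723-38220972, plus strand: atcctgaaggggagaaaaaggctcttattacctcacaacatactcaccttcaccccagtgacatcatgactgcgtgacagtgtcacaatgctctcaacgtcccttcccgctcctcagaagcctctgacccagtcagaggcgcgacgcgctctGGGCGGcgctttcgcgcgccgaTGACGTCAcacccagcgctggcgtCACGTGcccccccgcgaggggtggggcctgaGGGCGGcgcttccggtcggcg
Vps25, chr10:86696137-86696386, plus strand: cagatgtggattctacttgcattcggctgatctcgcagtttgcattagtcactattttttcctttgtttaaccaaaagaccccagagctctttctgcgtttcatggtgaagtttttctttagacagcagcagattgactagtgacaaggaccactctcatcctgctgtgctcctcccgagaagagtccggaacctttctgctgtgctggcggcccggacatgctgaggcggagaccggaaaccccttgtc

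A window was at hand for 22 of the 29 members found, and 4 motifs known from other genes were searched in it on both strands. The E-box, written CACGTG, was in 5.59% of 33469 windows of the same length, and 2 members held it, Pdcd6ip and Vps37b. The cyclic AMP response motif, written TGACGTCA, was in 1.59% of windows and in 2 members, Chmp2a and Vps37b. The AP-1 motif, written TGANTCA with any base at N, was in 6.34% of windows and in 1 member, Ist1. The GC-box core, written GGGCGG, was in 30.5% of windows and in 11 members. No motif of these contains another. Of the 4 windows printed, only that of Vps37b held a match. A match is a description of the letters alone.

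Libraries held between 25646531 and 46464289 counts. Levels are given as CPM, the counts of a gene scaled to the same library total with TMM factors set within each experiment, so levels are not compared between the CCl4 and TAA experiments, and no level is compared between genes, because transcript lengths were not at hand. TMM factors were 0.712 to 0.939 in healthy and 0.989 to 1.18 in the treated libraries. Of the 10 LSEC markers fixed for this check, 9 were found and all 9 were detected in every group. Their summed level was 14300 to 28000 CPM in healthy, 3720 to 4340 in acute, 2560 to 3580 in fibrosis and 15000 to 19400 in cirrhosis. In this sum the 2 early stages lay below the others without overlap. Stab1, Stab2, Clec4g, Fcgr2b, Mrc1 and Kdr did so singly, and the other markers did not. Cdh5 lay at 775 to 1760 CPM in healthy and 1320 to 2150 in acute, and Lyve1 at 498 to 2290 and 681 to 1160. Gata4 overlapped between acute (179 to 299 CPM) and cirrhosis (297 to 413). Stab1 lay at 2850 to 7160 CPM in healthy and 932 to 1480 in cirrhosis. Immediate-early genes (Fos, Fosb, Jun, Egr1 and Atf3), which respond to tissue dissociation, summed to 17100 to 40500 CPM in healthy, 589 to 1730 in acute, 1400 to 2220 in fibrosis and 12900 to 27700 in cirrhosis. The 6 hepatocyte markers summed to 703 to 16900 CPM in healthy, 85 to 767 in acute, 1010 to 4180 in fibrosis and 1580 to 10800 in cirrhosis. The 7 macrophage markers summed to 247 to 2280, 62.1 to 193, 26.1 to 158 and 571 to 2050 CPM in the same order. The 6 stellate cell markers found summed to 164 to 601, 8.85 to 30.4, 35.3 to 173 and 463 to 1660 CPM. Lymphocyte, cholangiocyte and neutrophil markers summed to at most 172, 26.4 and 7.69 CPM in any library of the CCl4 experiment. No defining marker was at 0 in every library of a CCl4 group. These lists moved with the same groups as the results that follow, and their part in the results was not tested.

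Which ESCRT genes differ between LSECs of healthy livers and of livers at each stage was asked first. After acute injury 14 of the 29 members were called higher and 7 lower, and 8 were not called. A call means an adjusted p-value under 0.05 from limma-voom and a fold-change above 1.5. Over all genes tested, 35.5% were called higher and 37.9% lower, so that the members' 14 stood above the background share of higher genes and their 7 below that of lower genes, and no test was made of this. At the stage of fibrosis 15 were called higher and 8 lower, against 35.3% and 34.9% of all genes. In cirrhosis 9 were called higher and 9 lower, against 27.1% and 24.7%. The median absolute log2 fold-change of the members was 0.97, 1.26 and 0.86 at the 3 stages, beside 1.42, 1.30 and 0.78 for all genes. All 3 comparisons share the 6 healthy libraries. In bulk RNA, fewer cells of a type and less RNA per cell cannot be told apart.

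The calls formed a few patterns. Stam, Stam2, Vps37a, Vps36, Chmp2b, Chmp5, Vps4b and Sdcbp (8 members) were called higher at all 3 stages, and Vps28, Vps37b, Vps37d, Mvb12a, Mvb12b, Snf8 and Vps25 (7 members) were called lower at all 3. Hgs, Tsg101, Vps4a, Vta1 and Pdcd6ip (5 members) were called higher in acute and fibrosis and were not called in cirrhosis. Ubap1, Chmp2a, Chmp3 and Ist1 (4 members) were called at no stage, and no member was called in opposite directions at different stages. Of the 13958 genes tested at all 3 stages, 17.5% were called higher at all 3, 16.9% lower at all 3, 12.6% higher in acute and fibrosis alone, 12.7% at no stage and 5.58% in opposite directions. With library size in place of TMM, the median of all genes moved to 0.32, 0.37 and 0.42 from -0.09, -0.03 and 0.07, and the split of higher and lower members became 16 and 5 in acute, 18 and 7 in fibrosis and 12 and 6 in cirrhosis. Under that scaling the calls of Mvb12b and Snf8 in acute and cirrhosis, of Vps25 in cirrhosis and of Chmp6 in fibrosis were lost. Calls of higher level were gained by Chmp4bl1 (0.96) and Ist1 (0.83) in acute, by Ubap1 (0.93), Chmp7 (0.82) and Ist1 (0.74) in fibrosis, and by Ubap1 (0.59), Chmp3 (0.70) and Pdcd6ip (0.73) in cirrhosis, so that of the 4 members called at no stage Chmp2a alone was not called under library size either.

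The healthy group was less uniform than the others. Over 15578 genes, healthy libraries 5 and 6 were the nearest to the mean of the CCl4 libraries, at a root mean square distance of 1.42 and 1.46 log2 CPM against 1.61 to 1.98 for the remaining 4. They held the 2 highest healthy values of 5 of the 8 members called higher at all stages, and the 2 lowest of 5 of the 7 called lower at all stages. The share over all genes called at all stages was not counted, so nothing particular to the members is read from this. Without both, 14 members were called higher and 8 lower in acute, 16 and 9 in fibrosis, and 8 and 10 in cirrhosis, a check added after the data were seen.

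**Figure D1:**
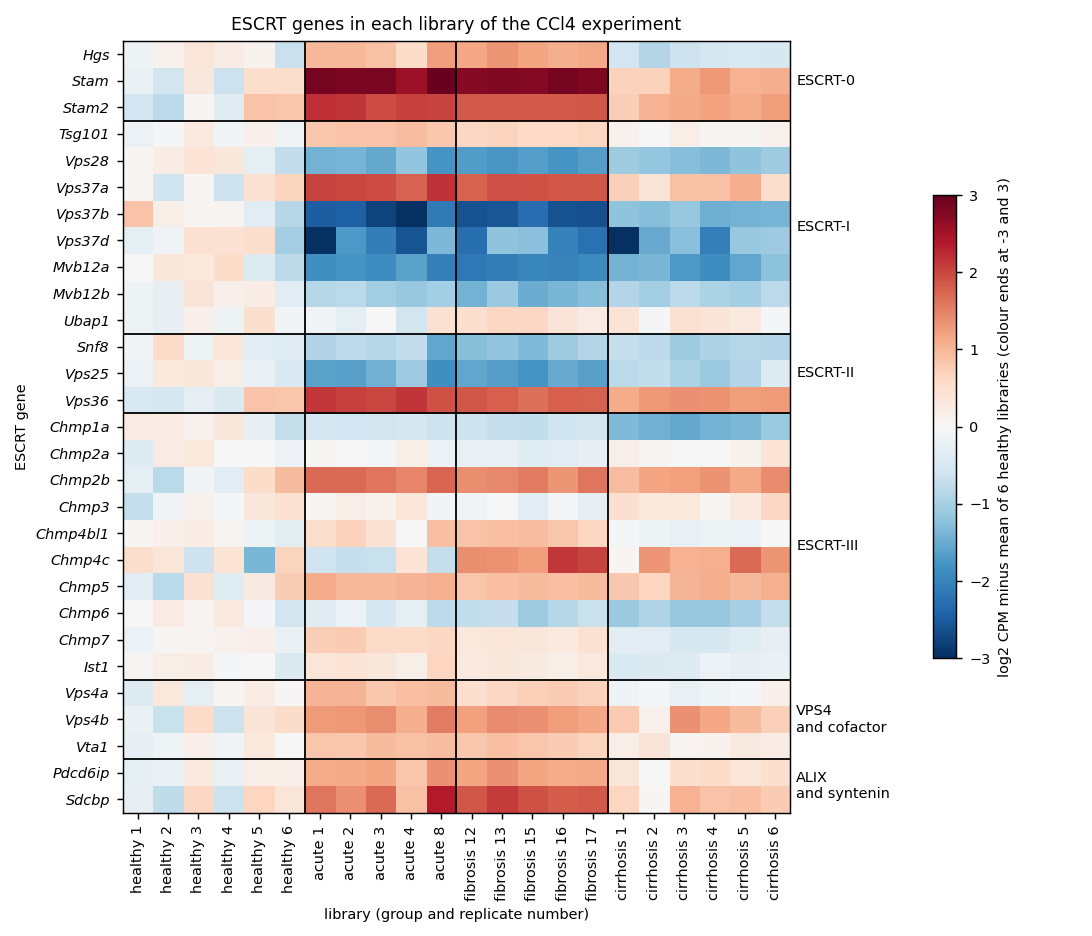
Level of each ESCRT gene (rows, by complex) in each library of the CCl4 experiment (columns), as log2 CPM minus the mean of the 6 healthy libraries, with red above and blue below that mean. Stam is red and Vps37b and Vps37d are blue in every acute and fibrosis library, and healthy libraries 5 and 6 lean towards the colours of the treated groups in several rows.

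ESCRT-0 gathers ubiquitinated cargo at the endosome. All 3 of its genes rose in acute and fibrosis, and Stam and Stam2 remained higher in cirrhosis while Hgs did not. Stam, an adaptor with a ubiquitin-binding domain and an SH3 domain, lay in healthy LSECs at 11.8 to 26.5 CPM (median 19.5). Its acute libraries measured 134, 130, 132, 109 and 144 CPM and its fibrosis libraries 121, 125, 125, 133 and 128 CPM. Every library of these stages lay far above the highest healthy one. In cirrhosis Stam lay at 29.5 to 45 CPM (median 38.3), still above every healthy library. The log2 fold-change of Stam was 2.84 ± 0.22 (SE) in acute, 2.84 ± 0.21 in fibrosis and 0.99 ± 0.21 in cirrhosis, which is 7.15-fold, 7.17-fold and 1.98-fold, with adjusted p-values from limma-voom of 2.79e-07, 2.6e-07 and 0.00214.

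Stam2, its close relative, lay in healthy LSECs at 5.71 to 18 CPM (median 8.97). Libraries 5 and 6 made up the top of that range. In acute injury it measured 45.2, 43.7, 38.5, 41.5 and 40.4 CPM and in fibrosis 35.8, 35.6, 35.5, 35.8 and 36.3 CPM, which are narrow ranges above all healthy libraries. In cirrhosis it lay at 16.7 to 23.9 CPM (median 21.6) and overlapped with healthy. Its log2 fold-changes were 2.08 ± 0.27, 1.89 ± 0.27 and 1.08 ± 0.26, and all 3 were called. Hgs encodes HRS, the subunit that binds endosomal lipid and cargo and recruits ESCRT-I. Hgs lay in healthy LSECs at 96 to 196 CPM (median 167). It measured 300, 306, 283, 227 and 366 CPM in acute injury and 346, 383, 350, 327 and 337 CPM in fibrosis. Both stages stood above every healthy library, and in cirrhosis Hgs lay at 83.8 to 111 CPM (median 105), at the lower edge of healthy. Its log2 fold-change was 0.96 ± 0.19 in acute (adjusted p = 0.000545) and 1.25 ± 0.17 in fibrosis (adjusted p = 2.9e-05). In cirrhosis it was -0.58 ± 0.17 (adjusted p = 0.0128), short of the fold threshold by a narrow margin. It was called lower there by edgeR (-0.61) and DESeq2 (-0.60), and also without healthy library 1 (-0.61) or 6 (-0.73) or cirrhosis library 1 (-0.59), 4 (-0.59), 5 (-0.60) or 6 (-0.61).

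ESCRT-I links cargo to the later complexes and is built from TSG101, VPS28, one of several VPS37 subunits and an MVB12 or UBAP1 subunit. Its members divided: Tsg101 and Vps37a rose in acute and fibrosis, while Vps28, Vps37b, Vps37d, Mvb12a and Mvb12b fell at every stage. Tsg101, the subunit that binds cargo and HRS, lay in healthy LSECs at 73.8 to 103 CPM (median 79.6). It measured 147, 152, 153, 159 and 147 CPM in acute injury, 129, 134, 127, 126 and 131 CPM in fibrosis and 84 to 97.3 CPM (median 89.2) in cirrhosis. Acute and fibrosis libraries were all above healthy, and cirrhosis overlapped with it. The log2 fold-changes of Tsg101 were 0.89 ± 0.12, 0.69 ± 0.11 and 0.10 ± 0.12, the last not called (adjusted p = 0.471).

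The VPS37 subunits, alternative partners within ESCRT-I, showed the widest parting. Vps37a lay in healthy LSECs at 9.26 to 22.6 CPM (median 14.9). It measured 58.6, 57.8, 55.2, 48.8 and 64.6 CPM in acute injury and 49.1, 54.4, 53.4, 51.9 and 52 CPM in fibrosis. All of these were more than the highest healthy value, whereas the cirrhosis libraries, at 18.7 to 30.2 CPM (median 25), overlapped with healthy. Its log2 fold-changes were 2.00 ± 0.23, 1.92 ± 0.22 and 0.75 ± 0.22, with adjusted p-values of 6.38e-06, 8.2e-06 and 0.011. Vps37b lay in healthy LSECs at 104 to 345 CPM (median 201). It measured 34.4, 35, 27.8, 24 and 43.9 CPM in acute injury and 31.2, 32.3, 39.2, 31.3 and 30.5 CPM in fibrosis. Cirrhosis libraries came to 69.2 to 86.1 CPM (median 75.5), between the early stages and healthy, and no treated library reached the lowest healthy one. Its log2 fold-changes were -2.53 ± 0.28, -2.47 ± 0.26 and -1.31 ± 0.24, with adjusted p-values of 4.98e-06, 3.88e-06 and 0.000737. Vps37d was scarcely expressed, with 14 to 30 counts in a healthy library and 3 to 15 in a treated one. Its levels were 0.362 to 1.07 CPM (median 0.848) in healthy, 0.0817, 0.218, 0.167, 0.115 and 0.284 in acute, 0.143, 0.312, 0.299, 0.172 and 0.146 in fibrosis and 0.0764 to 0.347 CPM (median 0.281) in cirrhosis. The treated libraries were all below the lowest healthy one, with log2 fold-changes of -2.10 ± 0.43, -1.72 ± 0.39 and -1.63 ± 0.42, the widest errors of the complex.

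Vps28, a core subunit that contacts ESCRT-II, lay in healthy LSECs at 75.2 to 169 CPM (median 139). It measured 46.8, 47.9, 43.7, 55.7 and 36.9 CPM in acute injury, 39.4, 37.8, 40.2, 36.8 and 40.1 CPM in fibrosis and 49.2 to 60.3 CPM (median 55.4) in cirrhosis. None of the treated libraries overlapped with healthy, and the log2 fold-changes were -1.43 ± 0.21, -1.63 ± 0.20 and -1.18 ± 0.20. Mvb12a, which stabilises the complex, lay in healthy LSECs at 50.3 to 127 CPM (median 96.9). It measured 24.3, 25.4, 23.9, 28.4 and 20.9 CPM in acute injury, 19.6, 20.5, 22.1, 21.4 and 22.9 CPM in fibrosis and 23.8 to 37.1 CPM (median 30.9) in cirrhosis. Again no treated library overlapped with healthy, and the log2 fold-changes were -1.78 ± 0.23, -1.95 ± 0.23 and -1.51 ± 0.23. Its relative Mvb12b lay at 100 to 166 CPM (median 128) in healthy and at 45.6 to 58.3 CPM in fibrosis, with log2 fold-changes of -0.95, -1.26 and -0.90. Ubap1, the alternative to the MVB12 subunits, gave -0.05 ± 0.19, 0.54 ± 0.14 and 0.25 ± 0.15 and was called at no stage. In fibrosis Ubap1 was called higher without healthy library 5 (0.62) or fibrosis library 17 (0.61).

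ESCRT-II bridges ESCRT-I and ESCRT-III, and its genes divided at every stage: Vps36 rose and Snf8 and Vps25 fell. Vps36, the subunit that binds ubiquitin and membrane lipid, lay in healthy LSECs at 6.09 to 15.7 CPM (median 6.79). It measured 37.8, 36.2, 34.8, 38.5 and 33 CPM in acute injury and 31.6, 30.1, 27.3, 30.4 and 29.6 CPM in fibrosis. In cirrhosis it lay at 18.8 to 22.6 CPM (median 21.3), and every treated library was above every healthy one, although healthy libraries 5 and 6 at 15.7 CPM each were well apart from the other 4. Its log2 fold-changes were 2.05 ± 0.26, 1.81 ± 0.26 and 1.26 ± 0.24, with adjusted p-values of 1.5e-05, 5.19e-05 and 0.000837. Vps25, the subunit that recruits ESCRT-III through CHMP6, lay in healthy LSECs at 56 to 96.2 CPM (median 77.5). It measured 25.1, 24.8, 28.4, 35.7 and 21.3 CPM in acute injury, 25.8, 24.5, 22.6, 27 and 24.8 CPM in fibrosis and 35.2 to 57.7 CPM (median 42.8) in cirrhosis. Acute and fibrosis libraries were all below healthy, and the cirrhosis libraries overlapped with it. The log2 fold-changes of Vps25 were -1.48 ± 0.19, -1.55 ± 0.16 and -0.80 ± 0.18, and those of Snf8, the third subunit, were -0.92 ± 0.22, -1.07 ± 0.20 and -0.86 ± 0.18.

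ESCRT-III forms the constricting filaments. Of its 10 genes found, 3 were called higher in acute (Chmp2b, Chmp5 and Chmp7). In fibrosis 4 were called higher and 1 lower, and in cirrhosis 3 higher and 2 lower. Of all genes, 35.5%, 35.3% and 27.1% were called higher at the 3 stages and 37.9%, 34.9% and 24.7% lower. Nothing particular to ESCRT-III is read from these counts. Chmp2b, a late subunit of the filament, lay in healthy LSECs at 15.3 to 51.9 CPM (median 23.9). It measured 88.3, 87.6, 82.8, 75.2 and 90 CPM in acute injury, 71.7, 72.8, 79.5, 68.3 and 82.5 CPM in fibrosis and 51 to 72.7 CPM (median 62.6) in cirrhosis. Healthy library 6 held the highest healthy value and overlapped with cirrhosis only. Its log2 fold-changes were 1.67 ± 0.26, 1.53 ± 0.26 and 1.21 ± 0.24. Chmp5, which brings the VPS4 cofactor LIP5 (Vta1) to the filament, gave 1.06 ± 0.24, 0.97 ± 0.24 and 0.94 ± 0.23 and was called at all 3 stages. Chmp1a, another late subunit, was called in cirrhosis alone. It lay in healthy LSECs at 72.8 to 153 CPM (median 138). It measured 83.1, 81.1, 82.5, 85.2 and 79 CPM in acute injury, 77.6, 74.5, 72.6, 79.6 and 82.3 CPM in fibrosis and 41.7 to 55.2 CPM (median 46.3) in cirrhosis. Cirrhosis libraries were below all healthy and all earlier libraries, and the log2 fold-changes of Chmp1a were -0.52 ± 0.19, -0.57 ± 0.19 and -1.36 ± 0.19 (adjusted p = 0.000163 in cirrhosis). In fibrosis it was called lower by edgeR (-0.62) and DESeq2 (-0.59) and without healthy library 5 (-0.64) or 6 (-0.77) or fibrosis library 17 (-0.59). In acute it was called lower with upper-quartile factors (-0.59) and without healthy libraries 5 and 6 together (-0.66). It was also called lower there with a replicate block (-0.67, and -0.67 in the same libraries without it).

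Chmp6, the subunit that ESCRT-II contacts to start the filament, gave -0.38 ± 0.18, -0.73 ± 0.17 and -0.99 ± 0.17 and was called lower in fibrosis and cirrhosis. Chmp7, which acts at the nuclear envelope, gave 0.69 ± 0.12, 0.43 ± 0.11 and -0.36 ± 0.12 and was called higher in acute alone. Chmp2a, Chmp3 and Ist1, the first a core filament subunit and the last a VPS4 regulator, stayed between -0.31 and 0.42 at the 3 stages and were not called. Chmp4bl1 is a near-identical copy of Chmp4b, the main filament subunit. Chmp4b matched no symbol here, so which reads of the 2 genes the Chmp4bl1 counts hold is uncertain. Chmp4bl1 lay in healthy LSECs at 37.8 to 56.1 CPM (median 50.4). It measured 69.7, 77.3, 64.8, 48.1 and 89.7 CPM in acute injury, 87.2, 89.2, 91.3, 86 and 73.3 CPM in fibrosis and 41.3 to 48.7 CPM (median 43) in cirrhosis. Only the fibrosis libraries were clear of healthy, and the log2 fold-changes were 0.55 ± 0.18, 0.90 ± 0.13 and -0.11 ± 0.13, of which fibrosis was called. In acute it was called higher by DESeq2 (0.63), with its size factors (0.60), without a filter on low counts (0.66) and without healthy library 1 (0.63), 3 (0.64) or 4 (0.63) or acute library 4 (0.69). In cirrhosis its sign turned with library size (0.23) or upper-quartile factors (0.03). Chmp4c, a filament subunit known from the abscission checkpoint of cell division, had 6 to 90 counts in a library. Its levels were 0.215 to 0.93 CPM (median 0.765) in healthy, 0.381, 0.354, 0.361, 0.783 and 0.347 in acute, 1.55, 1.5, 1.4, 2.58 and 2.42 in fibrosis and 0.611 to 1.91 CPM (median 1.35) in cirrhosis. Fibrosis alone was clear of healthy, with log2 fold-changes of -0.42 ± 0.44, 1.68 ± 0.39 and 1.09 ± 0.39. The cirrhosis call of Chmp4c (adjusted p = 0.0298) was lost without healthy library 3 or 5 or cirrhosis library 2, 5 or 6, with adjusted p-values of 0.0565 to 0.0667, and with a block by replicate number (1.04, adjusted p = 0.0785).

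VPS4 is the ATPase that recycles ESCRT-III, and LIP5 (Vta1) stimulates it. All 3 genes rose in acute and fibrosis, and only Vps4b was called higher in cirrhosis. Vps4a lay in healthy LSECs at 26.3 to 42.4 CPM (median 35.7). It measured 69, 69.4, 59.9, 63.8 and 65.7 CPM in acute injury, 48.9, 53, 56.4, 58.4 and 55.8 CPM in fibrosis and 29.5 to 38.4 CPM (median 32.5) in cirrhosis. Cirrhosis fell back into the healthy range, and the log2 fold-changes were 0.97 ± 0.15, 0.73 ± 0.15 and -0.05 ± 0.14, the last of which turned its sign without healthy library 2 (0.01) and with library size (0.29) or upper-quartile factors (0.09). Vps4b lay in healthy LSECs at 61.7 to 147 CPM (median 107). It measured 238, 241, 260, 207 and 283 CPM in acute injury, 231, 261, 252, 235 and 218 CPM in fibrosis and 107 to 254 CPM (median 178) in cirrhosis. The early stages were above every healthy library, cirrhosis overlapped with healthy, and the log2 fold-changes were 1.35 ± 0.25, 1.35 ± 0.24 and 0.86 ± 0.27 (adjusted p = 0.0147 in cirrhosis). Vta1 gave 0.92 ± 0.13, 0.86 ± 0.12 and 0.23 ± 0.12.

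ALIX binds syntenin and ESCRT-III, and syntenin binds the tails of syndecans. Both genes rose in acute and fibrosis. Pdcd6ip, the gene of ALIX, lay in healthy LSECs at 182 to 265 CPM (median 219). It measured 474, 482, 497, 385 and 567 CPM in acute injury, 499, 559, 494, 472 and 478 CPM in fibrosis and 215 to 322 CPM (median 293) in cirrhosis. Early-stage libraries were all above healthy, and the log2 fold-changes were 1.16 ± 0.15, 1.26 ± 0.13 and 0.38 ± 0.14. In cirrhosis the adjusted p-value was 0.0333 but the fold stayed under 1.5, and with library size in place of TMM it was called higher (0.73). Sdcbp, the gene of syntenin, lay in healthy LSECs at 255 to 682 CPM (median 460). It measured 1330, 1120, 1410, 798 and 2240 CPM in acute injury, 1560, 1840, 1610, 1530 and 1540 CPM in fibrosis and 442 to 888 CPM (median 761) in cirrhosis. Acute libraries were widely spread but all above healthy. The log2 fold-changes of Sdcbp were 1.62 ± 0.32, 1.97 ± 0.26 and 0.72 ± 0.27. Its cirrhosis call (adjusted p = 0.0327) was lost without healthy library 1, 2 or 4 or cirrhosis library 3, 4 or 5, with adjusted p-values of 0.0519 to 0.0796.

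**Figure D2:**
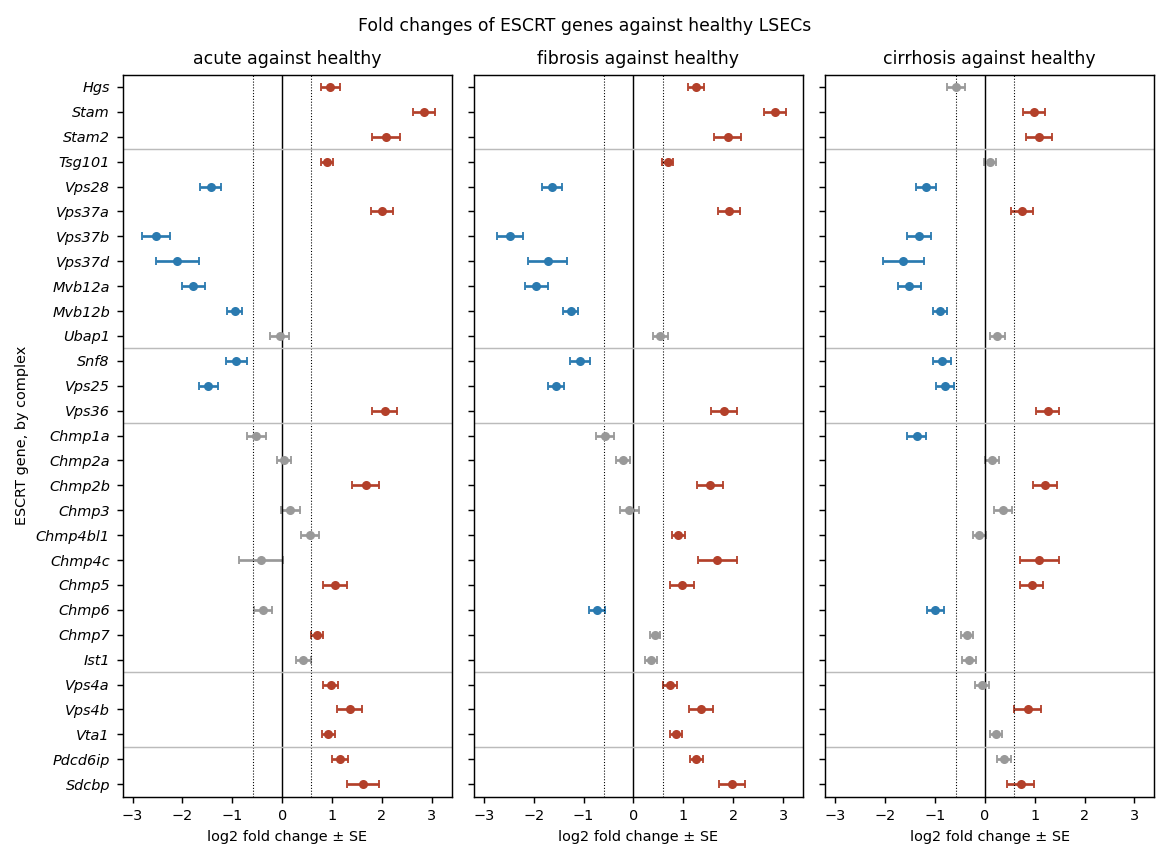
Log2 fold-change of each ESCRT gene (rows, by complex) against healthy LSECs in acute, fibrosis and cirrhosis, with bars of ± SE from limma-voom and dotted lines at a fold of 1.5. Red genes were called higher, blue genes lower and grey genes were not called; ESCRT-I and ESCRT-II hold genes of both colours at every stage, from -2.53 for Vps37b in acute to 2.84 for Stam.

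**Figure D3:**
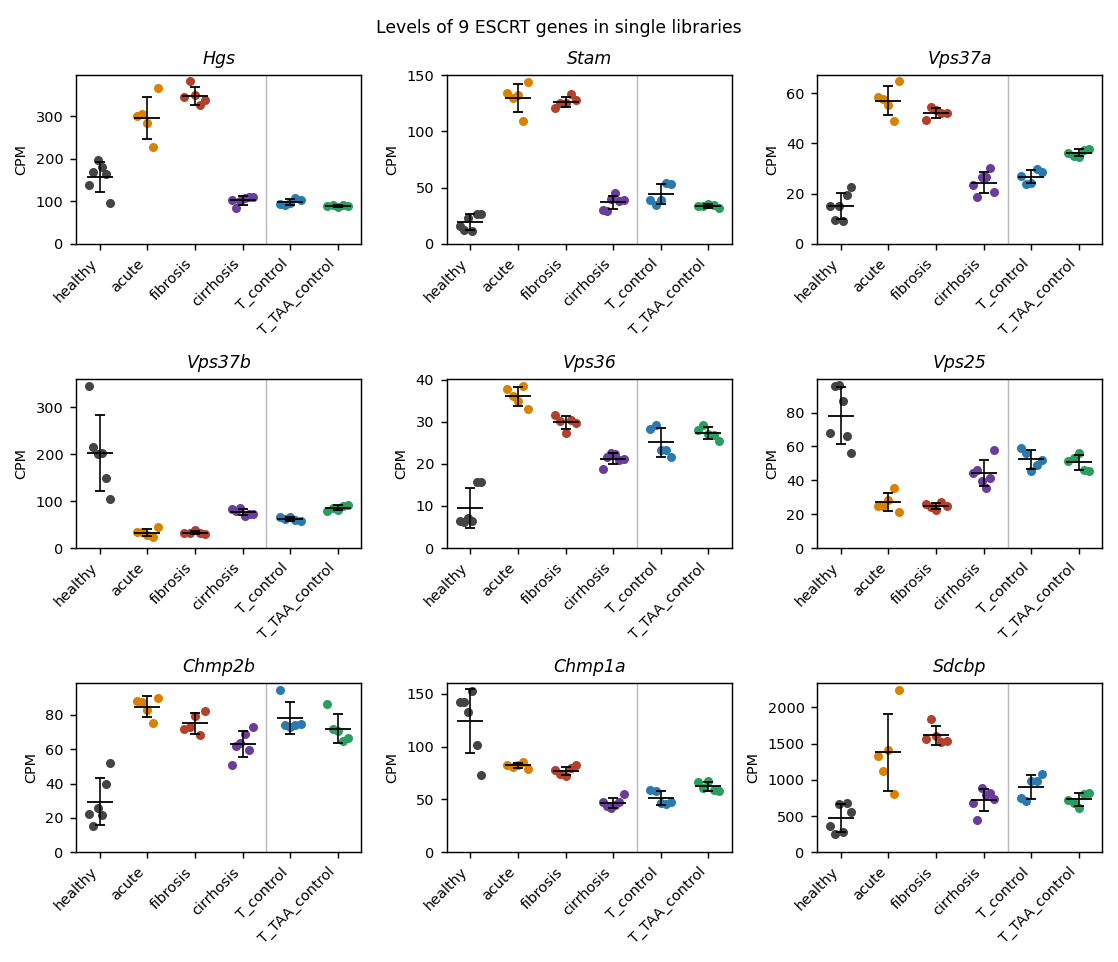
CPM of 9 ESCRT genes in each library (points) by group, with the mean and SD as bars; the CCl4 experiment stands left of the grey line and the TAA experiment right of it, normalised apart. Stam in acute lies at 109 to 144 CPM against 11.8 to 26.5 CPM in healthy, and Chmp1a is lowest in cirrhosis among the CCl4 groups.

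Whether related genes moved apart was asked within each library, with the log2 ratio of their counts, which does not depend on how libraries are scaled. Both genes had been found for 5 pairs, which gave 20 comparisons. Of these, 13 passed a two-sided exact permutation test after Benjamini-Hochberg adjustment over the 20. Other pairs of genes were not tested, so no background share stands beside the 13. The members were chosen with earlier results of these data known. The smallest exact p-value that appears is 0.00216 (adjusted 0.0108). The ratio of Vps37a to Vps37b was -4.53 to -2.21 in healthy libraries. It was 0.56 to 1.02 in acute, 0.44 to 0.77 in fibrosis and -2.08 to -1.24 in cirrhosis. No treated library overlapped with healthy. Only the change of the ratio between groups is read, not its sign, because transcript lengths were not at hand. The mean ratio rose by 4.54, 4.40 and 2.06 on the log2 scale, or 23.3-fold, 21.2-fold and 4.18-fold (exact permutation, adjusted p = 0.0108 each). Chmp2a/Chmp2b fell by 1.65, 1.75 and 1.08 on the log2 scale (exact permutation, adjusted p = 0.0124, 0.0124 and 0.0216). Mvb12a/Mvb12b fell by 0.84, 0.69 and 0.61 (exact permutation, adjusted p = 0.0216, 0.0315 and 0.04). Stam/Stam2 rose by 0.74 and 0.94 in acute and fibrosis (exact permutation, adjusted p = 0.0124 and 0.0108). In cirrhosis its difference was -0.10 (exact permutation, adjusted p = 0.538). Vps4a/Vps4b fell by 0.91 in cirrhosis (exact permutation, adjusted p = 0.0397), with -0.38 and -0.62 in acute and fibrosis that did not pass (adjusted p = 0.353 and 0.124).

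**Figure D4:**
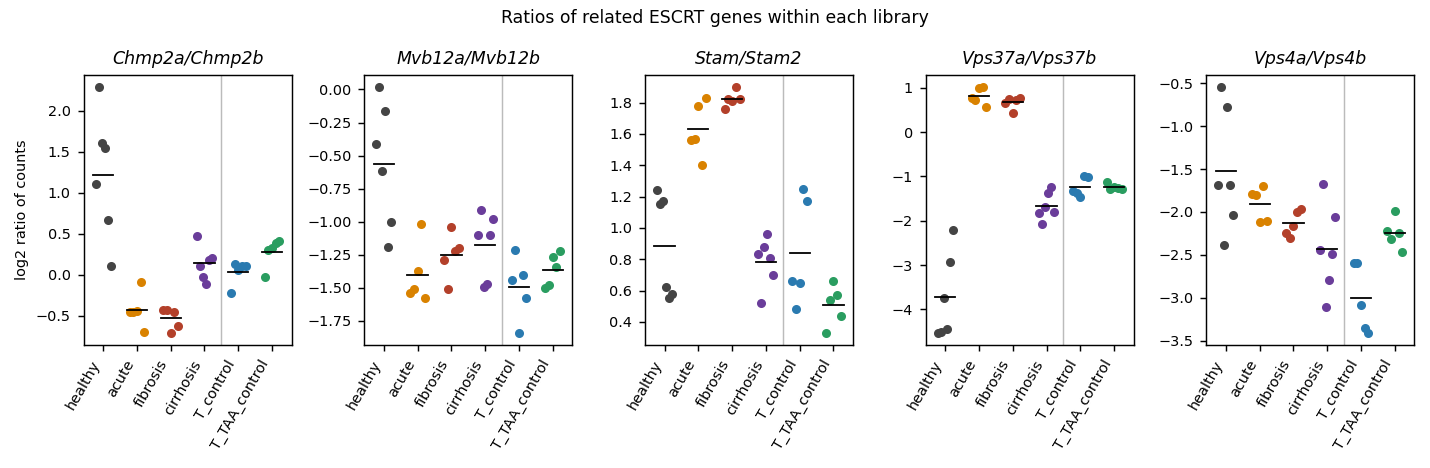
Log2 ratio of counts of 5 pairs of related ESCRT genes in each library (points) with group means as lines, each pair on its own axis. The Vps37a/Vps37b ratio is higher in all acute, fibrosis and cirrhosis libraries than in any healthy library.

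The stages were then compared with each other. From acute to fibrosis 2 of 28 members tested were called higher, Ubap1 and Chmp4c, and none lower, against 10.2% and 0.732% of all genes. Without the fold threshold 4 members passed the adjusted p, 12 passed an unadjusted p under 0.05, and edgeR and DESeq2 called the same number as limma-voom, 2. Ubap1 gave 0.64 ± 0.16 (adjusted p = 0.0213), and its call was lost without acute library 1, 2 or 4 (0.63, 0.59 and 0.52), with library size alone (0.58) and in a single fit over the 4 CCl4 groups (0.56). Chmp4c gave 2.15 ± 0.31 from few counts. From fibrosis to cirrhosis 2 members rose and 11 fell, against 34.3% and 29.5% of all genes. Vps37b (1.23 ± 0.09) and Vps25 (0.80 ± 0.12) rose. The largest falls were those of Stam (-1.80 ± 0.11), Hgs (-1.77 ± 0.08), Sdcbp (-1.19 ± 0.16) and Vps37a (-1.12 ± 0.11). All 13 called members had groups that did not overlap. The share over all called genes was not counted, so nothing particular to the members is read from this. With upper-quartile factors the split was 4 higher and 10 lower. Ist1, at -0.60, was at the fold threshold and lost its call without cirrhosis library 1, 2 or 3 (-0.56, -0.57 and -0.57), with DESeq2, DESeq2 size factors or no filter on low counts (-0.57 each), and with a mean CPM filter or upper-quartile factors (-0.51 each). Vta1, at -0.58, was not called and gained a call without cirrhosis library 2 (-0.60) or fibrosis library 16 (-0.59) or 17 (-0.61), as did Mvb12a (0.60) and Chmp3 (0.59) without cirrhosis library 4.

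From acute to cirrhosis 3 members were higher (Vps37b, Vps25 and Chmp4c) and 14 lower, against 37.5% and 31.8% of all genes. With upper-quartile factors 3 were higher and 8 lower, and Tsg101, Vps36, Chmp4bl1, Ist1, Vta1 and Pdcd6ip lost their calls. Tsg101 (-0.58), Ist1 (-0.53) and Vta1 (-0.49) lost theirs with a mean CPM filter as well. Chmp4bl1 (-0.63) also lost its call without acute library 8 (-0.54), with a mean CPM filter (-0.46), no filter (-0.55), DESeq2 size factors (-0.58) or a replicate block (-0.50, and -0.49 in the same libraries without it), while Chmp6 (-0.57) gained one without cirrhosis library 2 (-0.59) or 6 (-0.62) or acute library 3 (-0.60) or 8 (-0.68). Of the 21 members called after acute injury, 18 had a cirrhosis mean between their healthy and acute means, as did 70.9% of all genes called after acute injury. Of the 14 that had risen, 11 were called lower in cirrhosis than in acute and 8 lower than in fibrosis, against 73.1% and 67.1% of all genes that had risen. Of the 7 that had fallen, 2 were called higher in cirrhosis than in fibrosis, against 72.7% of all genes that had fallen. These genes were chosen by the same acute libraries, so nothing is read from the counts beyond that. Comparisons of the stages share libraries with the comparisons against healthy.

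In the TAA experiment none of 28 members was called in T_TAA_control against T_control, against 12.7% of all genes higher and 14.9% lower. By limma-voom, 15 members had an unadjusted p under 0.05 and 10 an adjusted p under 0.05, all of the 10 with folds under 1.5, and edgeR and DESeq2 called 0. All 95% intervals of the log2 differences lay between -1.29 and 0.68, and the lowest bound belonged to Chmp4c (-0.65), which had 10 to 32 counts a library. Without T_TAA_control library 12, Chmp4c was called lower (-0.81, adjusted p = 0.0481). Vta1 gave the largest difference with an adjusted p under 0.05 (0.51 ± 0.08, adjusted p = 0.000415). Vps37a measured 27, 24, 24.1, 29.7 and 28.4 CPM in T_control and 36.3, 35.1, 34.7, 37.3 and 37.8 CPM in T_TAA_control. Vps37b measured 67.2, 62.4, 66.4, 59.4 and 57.4 CPM and 79.4, 85, 82.2, 89.7 and 92.8 CPM. Both were higher in T_TAA_control without overlap, by 0.45 ± 0.07 and 0.46 ± 0.07, so that the pair moved together here and its ratio differed by -0.01 (exact permutation, adjusted p = 0.952). Pdcd6ip measured 339, 323, 337, 367 and 373 CPM and 268, 267, 240, 263 and 262 CPM, a difference of -0.42 ± 0.06 (adjusted p = 0.000456). It was lower in T_TAA_control without overlap. Vps4b differed by -0.49 ± 0.13 and Vps4a by 0.27 ± 0.07, and the ratio Vps4a/Vps4b was higher by 0.76 (exact permutation, adjusted p = 0.0198). Among the other members with small differences, Hgs gave -0.13, Tsg101 0.21, Chmp4bl1 -0.04 and Sdcbp -0.29. Stellate cell markers summed to 1660 to 4600 CPM in T_control and 203 to 302 CPM in T_TAA_control, and immediate-early genes to 8530 to 17600 and 28400 to 41200 CPM, and their part in these differences was not tested. Libraries 14 and 15 of T_TAA_control differed from each other less than any other pair within a group (chi-square per degree of freedom 2.96 against at least 23.6), and with their mean as 1 library the count of called members was again 0.

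The genes that act beside ESCRT were counted in lists. Of 28 partners and regulators, 12 were called higher and 9 lower in acute, 13 and 9 in fibrosis, and 11 and 11 in cirrhosis. Of all genes, 35.5%, 35.3% and 27.1% were called higher at these stages and 37.9%, 34.9% and 24.7% lower. The list's median log2 fold-change was 0.44, 0.50 and 0.10, beside -0.09, -0.03 and 0.07 for all genes. Stambpl1, a deubiquitinating enzyme that acts on endosomal cargo, rose from a mean of 3.53 CPM in healthy to 36.4 in acute, 41.4 in fibrosis and 8.01 in cirrhosis, with log2 fold-changes of 3.41 ± 0.19, 3.63 ± 0.17 and 1.19 ± 0.20. Nedd4l, a ubiquitin ligase, rose by 1.19 in acute and 2.27 in fibrosis and gave 0.14 in cirrhosis, which was not called. Cep55, which recruits ALIX and TSG101 at cell abscission, had means of 0.261 CPM in healthy and 0.745 to 1.26 CPM in the treated groups, with log2 fold-changes of 1.61, 1.84 and 2.17. Lemd2, the partner of CHMP7 at the nuclear envelope, fell from 127 CPM to 63.2, 54.3 and 35.0 CPM.

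Of 7 endosomal phosphoinositide enzymes, which make and turn over the lipid that HRS binds, 3 were called higher and 1 lower in acute, 3 and 1 in fibrosis, and 2 and 1 in cirrhosis. The shares of all genes were 35.5%, 35.3% and 27.1% higher and 37.9%, 34.9% and 24.7% lower. Pikfyve rose by 1.57, 1.18 and 0.94 on the log2 scale and Becn1 by 1.01, 0.79 and 0.61. Pik3c3, the catalytic subunit of the class III kinase, rose by 1.14 and 1.06 in the early stages and gave 0.08 in cirrhosis, and Fig4 fell by 1.34 and 1.30 and gave 0.14. Of the 11 genes of the syndecan-syntenin route and of neutral sphingomyelinases, 1 was called higher and 8 lower in acute, 2 and 7 in fibrosis, and none higher and 5 lower in cirrhosis. The same shares of all genes stand beside these counts. Sdc3, a syndecan, fell from 708 CPM in healthy to 128 in acute, 72.3 in fibrosis and 235 in cirrhosis. Hpse, the heparanase that trims syndecan chains, fell from 164 to 22.3 and 16 CPM and stood at 138 CPM in cirrhosis, where it was not called. Smpd2, a neutral sphingomyelinase, fell from 236 to 22.4, 19.9 and 88.3 CPM. Sdc2 fell by 3.84 ± 0.87 in acute only, with -1.18 in fibrosis (adjusted p = 0.13) and -0.03 in cirrhosis. The genes of this list called higher were Sdcbp2, a paralogue of Sdcbp, in acute (1.17) and fibrosis (2.17), and Sdc1, a syndecan, in fibrosis (1.31), both named after their values were seen. In the TAA experiment 4 of the 28 partners were called higher and 2 lower in T_TAA_control, none of the 7 phosphoinositide enzymes was called by limma-voom (4 had an adjusted p under 0.05), and of the 11 syndecan-syntenin and sphingomyelinase genes none was called higher and 3 lower. Of all genes, 12.7% were called higher there and 14.9% lower.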

How the data were processed

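The data are 32 RNA-seq libraries of rat LSECs. The authors aligned reads of strand-specific poly(A) libraries with STAR to the rat assembly Rnor_6.0, and what they deposited are expected counts estimated by RSEM for 32623 genes, without normalization. Versions of STAR and RSEM are not given in the sources used here. RSEM splits reads that fit several near-identical genes by estimation, so such genes are less certain.

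Expected counts were rounded to whole numbers. Each comparison was fitted on its own libraries with limma-voom (limma 3.58.1, R 4.3.3), TMM factors and the filterByExpr filter of edgeR 4.0.16, as the study's methods name TMM and limma-voom, without covariates. Adjusted p-values are Benjamini-Hochberg values over all genes tested, and a call needs an adjusted p under 0.05 and a fold-change above 1.5, where the study used an unadjusted p. Levels are CPM with TMM factors set within each experiment. Ratios of related genes are log2 ratios of counts with a pseudocount of 0.5, tested with two-sided exact permutation tests over libraries. The series text gives as many rats as libraries in each group, but no label ties a library to a rat, so p-values measure the spread between these libraries, which may be technical.

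Groups were taken from the sample labels, except that the duration of cirrhosis comes from the description of the series. The stage names acute, fibrosis and cirrhosis follow the study's text. The members and gene lists were chosen with earlier results of these data known. Values by library (as range and median in groups of 6) are given for up to 8 called members of each comparison with healthy by largest change, and always for Hgs, Tsg101, Vps4a, Vps4b, Chmp4bl1, Pdcd6ip and Sdcbp; partners are named up to 4 a list by largest change, with Sdc1 and Sdcbp2 added after their values were seen. Mvb12b, Snf8, Vps25, Chmp5 and the other members are given by fold-change or range, and values of Vps25 by library were added to the rule beside its sequence. Alternatives were edgeR's quasi-likelihood test, DESeq2 1.42.0, other thresholds, filters (none, or a mean of 5 CPM) and scalings, a single fit over the CCl4 groups, a block by replicate number, and leaving out each library in turn. The fits were tried on simulated counts in which a small set of genes changed, equally in both directions. Far more genes were called in these data, so the simulation does not bear on the scaling here. The permutation test was tried on a known case. Upstream sequences are RefSeq windows on GRCr8, and no gene position is given on Rnor_6.0. Figures were drawn with matplotlib.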

Additional observations from a re-analysis of the deposited data

Results flagged for a closer look

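In 9 of 174 groups of libraries a single library lay apart from the rest of its group by Dixon's criterion at the 95% level, where chance alone gives about 8.7. The high ones were Stam2 in T_TAA_control library 10 (26.7 CPM, next 23.2), Vps28 in T_control library 2 (58.7, next 55.1), Vps37b in fibrosis library 15 (39.2, next 32.3), Chmp2b in T_control library 1 (94.6, next 74.7) and Chmp4c in acute library 4 (0.783, next 0.381). The low ones were Snf8 in acute library 8 (14.3 CPM, next 22.5), Chmp4bl1 in fibrosis library 17 (73.3, next 86.0), and Pdcd6ip in cirrhosis library 2 (215, next 279) and in T_TAA_control library 13 (240, next 262).

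Hgs and Chmp7 differed from healthy in opposite directions at different stages, each with an adjusted p under 0.05 from limma-voom before the fold threshold. Hgs was higher in acute and fibrosis (0.96 and 1.25 on the log2 scale) and stood at -0.58 in cirrhosis. The test of cirrhosis against acute gave -1.52 (adjusted p = 9.79e-08) and that against fibrosis -1.77 (adjusted p = 3.21e-09). Chmp7 gave 0.69, 0.43 and -0.36 against healthy, and cirrhosis differed from acute by -1.03 (adjusted p = 4.69e-08) and from fibrosis by -0.73 (adjusted p = 4.1e-07). Neither gene's cirrhosis libraries overlapped with its acute or fibrosis libraries. Both genes were picked by opposite signs in these same libraries, so the direction of the direct tests was set by the choice. The share of all genes that meet this rule was not counted.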

How the results depend on the processing

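Counts of called members kept within 1.5 times of the reported ones, except as follows, and the cause was not tested unless named. From acute to fibrosis the count of 2 became 4 without the fold threshold and 1 with a mean CPM filter, with library size alone or in a single fit over 4 groups; the mean CPM filter leaves Chmp4c untested. From fibrosis to cirrhosis it became 24 without the fold threshold, and from acute to cirrhosis 11 with upper-quartile factors. In the TAA experiment the count of 0 became 1 with an unadjusted p (Chmp4c) and 10 without the fold threshold. With each library left out in turn the counts were 21 to 22 in acute, 23 to 25 in fibrosis and 17 to 19 in cirrhosis against healthy, 1 to 2 from acute to fibrosis, 12 to 15 from fibrosis to cirrhosis, 17 to 18 from acute to cirrhosis and 0 to 1 in the TAA experiment, and 11 to 14 of the ratio tests passed. Signs turned only for uncalled values in cirrhosis against healthy: Vps4a (-0.05) became 0.10 with the mean CPM filter, 0.29 with library size, 0.09 with upper-quartile factors and 0.02 without healthy libraries 2 and 6, and ranged from -0.13 to 0.01 with each library left out; Chmp4bl1 (-0.11) became 0.05, 0.23 and 0.03 under the first 3. Leaving out healthy libraries 2 and 6, the pair with the highest TMM factors, was chosen after the data were seen, as was leaving out 5 and 6; it gave 22, 24 and 18 called members in acute, fibrosis and cirrhosis.

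Replicate numbers are shared by healthy, acute and cirrhosis libraries, but the same-numbered libraries did not deviate together throughout (correlations 0.04 to 0.15, -0.21 to 0.23 and -0.07 to 0.06 in the 3 comparisons), and not every library correlated best with its own number. With a replicate block, 22, 17 and 17 members were called in acute against healthy, cirrhosis against healthy and cirrhosis against acute, beside 22, 18 and 17 in the same libraries without it, a fit added after the data were seen, and the call lost was that of Chmp4c. Depth limits Vps37d and Chmp4c, with at most 30 and 90 counts in a library.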
